A study of Mus musculus with 13 samples.

Results

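The 9 genes described here carry the last steps of canonical Wnt signalling: the TCF/LEF transcription factors Tcf7, Lef1, Tcf7l1 and Tcf7l2, their coactivator beta-catenin (Ctnnb1), and Axin1, Axin2, Apc and Gsk3b of the complex that degrades beta-catenin. The readout was 5-hydroxymethylcytosine (5hmC) in genomic DNA of mouse knee cartilage, and the members were chosen by name: every region of the 3 deposited comparison tables whose nearest gene, as the tables give it, was 1 of the 9. This gave 147 of the 181833 listed regions, of which 27 of 43378 came from WT DMM against WT sham, 61 of 65969 from MUT DMM against WT DMM and 59 of 72486 from MUT DMM against WT sham. The groups used were WT sham (genotype TET1+/+, knee joint opened only), WT DMM (TET1+/+, medial meniscus removed) and MUT DMM (genotype given as TET-/-, medial meniscus removed). DMM usually stands for destabilization of the medial meniscus, a surgical model of osteoarthritis. All mice were male and of strain B6;129S4, and cartilage was taken 6 weeks after surgery. The labels put the mice at 3 to 4 months of age in one place and at 4 to 6 months in another, and each control is described as the contralateral leg. The labels list 3 samples per group, and name neither the Tet1 allele nor the tissues in which it is lost. The MUT sham samples and the negative control without glucosylation were not analysed here, so the effect of the genotype without surgery and the background of the assay do not enter any value.

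In canonical Wnt signalling, a complex built on the Axin scaffold and APC lets GSK3-beta phosphorylate beta-catenin, which is then degraded. When a Wnt ligand blocks that complex, beta-catenin enters the nucleus and joins TCF/LEF factors on DNA, turning them from repressors into activators of target genes, Axin2 among them. In articular cartilage both too much and too little beta-catenin activity is known to damage the tissue. TET1 is an enzyme that oxidizes 5-methylcytosine to 5hmC, a mark often found at enhancers and along gene bodies.

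The assay, reduced representation hydroxymethylation profiling (RRHP), cuts DNA with MspI at CCGG, protects hydroxymethylated sites by glucosylation and cuts again, so that a sequenced fragment end stands for a CCGG with 5hmC. The deposited values are counts per region, normalized by the authors within each comparison, and levels are therefore never set across comparisons here. Within 0.02 normalized counts, at least 99.9955% of each library's values were whole multiples of the value of 1 read, which gave its depth. In MUT DMM against WT sham, 1 read was worth 0.736 and 9.45 normalized counts in the 2 MUT DMM libraries, and 0.277 to 1.16 in the 3 WT sham libraries. In MUT DMM against WT DMM, 1 read was worth 0.234 and 3.55 in MUT DMM, and 9.56, 0.752 and 0.609 in WT DMM. The tables list 3 values for MUT DMM, but 2 of them were identical in 100% of the regions and were counted as 1 library, which leaves 2. The authors' p-values for MUT DMM may still count that library as 2. WT DMM library 1 (libraries are numbered in the order the tables list them) was almost empty: in WT DMM against WT sham it had no read in 95.8% of the listed regions, and its single reads were worth 15.7 normalized counts. Results that involve WT DMM are therefore given with and without that library. Nothing in the tables ties a listed value to a labelled replicate. In whole tissue, a change in the share of cell types and a change of 5hmC within a cell cannot be told apart.

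Regions near the starts of these genes can be read beside the sequence, since RRHP sees only CCGG. RefSeq promoter windows (GRCm38.p6, the mm10 coordinates) were found for 7 of the 9 members. Of all 32851 such windows, 52.8% hold at least 1 CCGG (the site reads the same on both strands), with a median of 1. The 250 bases before the start are shown for the members that had a changed region within 1000 bases of their most upstream start (Tcf7l1, Tcf7l2, Axin2 and Gsk3b), and for the internal Lef1 start whose window a changed region overlapped. Capitals mark CCGG, the sites at which 5hmC can be read, and each sequence runs 5′ to 3′ on the strand of its gene.
Tcf7l2, chr19:55741560-55741809, plus strand: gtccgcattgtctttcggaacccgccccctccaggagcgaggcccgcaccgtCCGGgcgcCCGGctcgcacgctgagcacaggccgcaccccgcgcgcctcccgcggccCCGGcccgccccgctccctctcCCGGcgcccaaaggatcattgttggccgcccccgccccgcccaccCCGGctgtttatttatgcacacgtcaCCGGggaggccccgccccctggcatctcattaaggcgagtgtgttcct
Tcf7l1, chr6:72789046-72789295, minus strand: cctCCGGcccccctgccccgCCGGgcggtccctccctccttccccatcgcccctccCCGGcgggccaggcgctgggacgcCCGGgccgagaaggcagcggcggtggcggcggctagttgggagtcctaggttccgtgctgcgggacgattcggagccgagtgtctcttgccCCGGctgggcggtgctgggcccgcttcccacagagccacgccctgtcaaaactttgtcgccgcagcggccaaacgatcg
Axin2, chr11:108920099-108920348, plus strand: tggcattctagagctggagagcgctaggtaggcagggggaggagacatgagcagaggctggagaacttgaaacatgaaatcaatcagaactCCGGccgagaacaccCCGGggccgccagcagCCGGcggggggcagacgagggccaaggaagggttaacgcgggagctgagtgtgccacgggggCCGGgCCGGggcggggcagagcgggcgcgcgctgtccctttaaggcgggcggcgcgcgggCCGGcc
Gsk3b, chr16:38088751-38089000, plus strand: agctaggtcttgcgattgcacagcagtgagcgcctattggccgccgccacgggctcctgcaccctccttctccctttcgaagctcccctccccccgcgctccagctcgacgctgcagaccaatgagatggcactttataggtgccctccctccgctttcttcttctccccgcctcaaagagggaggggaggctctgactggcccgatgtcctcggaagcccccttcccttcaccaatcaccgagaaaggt
Lef1 internal start, chr3:131112541-131112790, plus strand: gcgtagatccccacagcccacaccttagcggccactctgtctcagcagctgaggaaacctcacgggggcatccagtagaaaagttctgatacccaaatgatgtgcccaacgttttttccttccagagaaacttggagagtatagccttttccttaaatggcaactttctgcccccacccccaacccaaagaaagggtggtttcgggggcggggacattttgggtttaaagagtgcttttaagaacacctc
The Tcf7l2 and Axin2 stretches hold 6 CCGG each, the Tcf7l1 stretch 5, and the Gsk3b and Lef1 stretches 0. A changed region overlapped the Tcf7l2 stretch by 141 bases and the Lef1 stretch by 20 bases. The nearest changed regions of the other 3 lay 70 bases from the Gsk3b stretch, 65 bases from the Tcf7l1 stretch and 192 bases downstream of the Axin2 stretch.

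The first comparison sets operated against sham knees of wild-type mice, the second the genotypes after surgery, and the third both at once, and the listed 5hmC regions of the 9 genes were mostly higher in the first and mostly lower in the other two. In WT DMM against WT sham, 25 of the 27 member regions were higher in WT DMM and 2 were lower by the adjusted p of the authors' deposited tables (under 0.05), beside 93.2% higher and 6.53% lower of all listed regions. Between MUT DMM and WT DMM, 18 were higher and 43 lower in MUT DMM, beside 34.2% and 64.7% of all. Between MUT DMM and WT sham, 13 were higher and 46 lower in MUT DMM, beside 43.2% and 56.1%. In each comparison, the more frequent direction among the members was also that of the whole table. The tables list regions already selected for a difference, so a gene without a listed region is not shown to be unchanged.

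**Figure D1:**
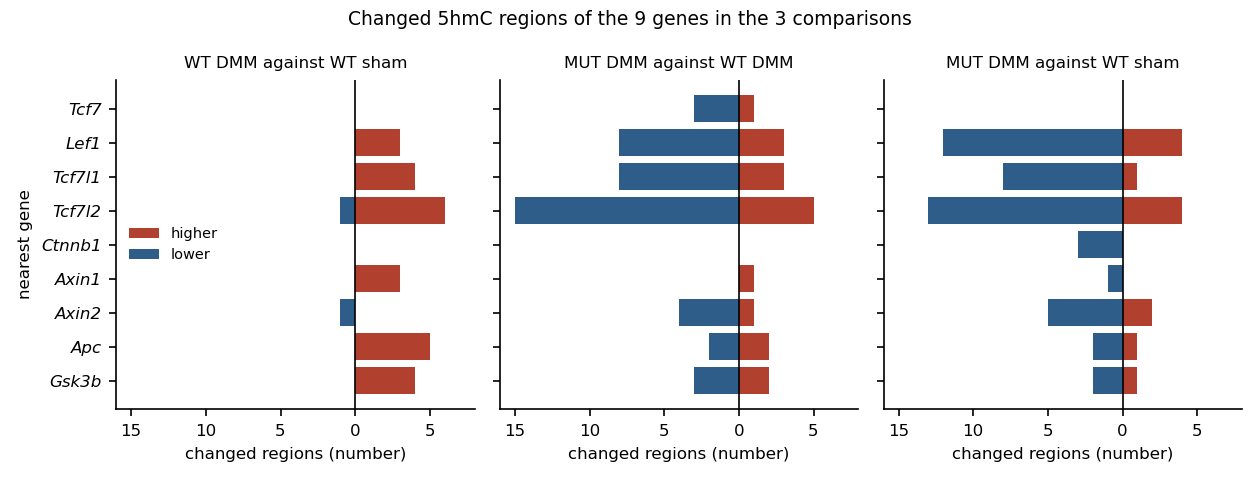
Number of changed 5hmC regions per gene (rows) in the 3 comparisons (panels), with regions higher in the first-named group to the right and lower ones to the left. Tcf7l2 had the most in each panel (7, 20 and 17), followed in MUT DMM against WT DMM by Lef1 and Tcf7l1 with 11 each, 8 of them lower in both genes, and in MUT DMM against WT sham by Lef1 with 16.

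How far the libraries themselves stood apart depended on the comparison. In MUT DMM against WT sham, the 2 MUT DMM libraries did not overlap the 3 WT sham libraries in the called direction in 44 of the 59 member regions, beside 32.5% of all regions that did so as higher and 49.1% as lower. Between MUT DMM and WT DMM this held for 20 of 61 (22.9% higher and 18.5% lower over the table), and for 48 of 61 without WT DMM library 1 (24.1% and 52.9%). In WT DMM against WT sham it held for 3 of 27 (0.994% and 1.71%), and for 25 without WT DMM library 1 (79.5% and 2.02%). A limma fit to log2(normalized count + 1), with Benjamini-Hochberg adjustment over the whole table, called 28 member regions lower and 0 higher in MUT DMM against WT sham, beside 39% lower and 8.19% higher of all regions. In the same fit, 36 of the 59 had an unadjusted p under 0.05, beside 43792 of all 72486 regions. It called 0 member regions in the other 2 comparisons. There 1 of 27 member regions in WT DMM against WT sham had an unadjusted p under 0.05 (361 of 43378 over the table), and 1 of 61 in MUT DMM against WT DMM (2869 of 65969). Without WT DMM library 1 it called 24 higher and 1 lower in WT DMM against WT sham (75.9% and 1.87% of all) and 1 higher and 5 lower in MUT DMM against WT DMM (5.84% and 9.88% of all). Since limma was run on regions that the authors had selected on the same values, its calls are a second reading of those values and not independent of the first. With 3 libraries against 2, an exact 2-sided rank test of 1 region cannot go below p = 0.2, and with 3 against 3 not below 0.1.

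Position separated the directions in MUT DMM against WT DMM. Of the 56 changed regions of members with a known start, 6 lay within 1000 bases of the member's own most upstream start, and all 6 were higher in MUT DMM, while 9 of the 50 farther away were higher. The same division ran through the table: within 1000 bases of any gene's start, 73.7% of 6106 changed regions were higher, against 30.6% of 59143 elsewhere. Counting starts of any gene for the members too, 7 of 10 regions near a start and 11 of 51 elsewhere were higher. Without WT DMM library 1 the shares over all genes were 72.4% and 29.8%, and 7 of 10 and 10 of 51 for the members. Between MUT DMM and WT sham, only 2 member regions lay that close to their own start, 1 higher and 1 lower, and over all genes 56.5% of 4383 changed regions near a start and 42.6% of 67591 elsewhere were higher. In WT DMM against WT sham the difference ran the other way over all genes, with 75.8% of 1144 higher near a start and 93.9% of 42096 elsewhere, while both member regions near their own start were higher, as were 15 of 17 elsewhere. In MUT DMM against WT DMM, regions near starts also had the higher levels, with a median of 27.2 normalized counts in MUT DMM near any start and 4.96 elsewhere.

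**Figure D2:**
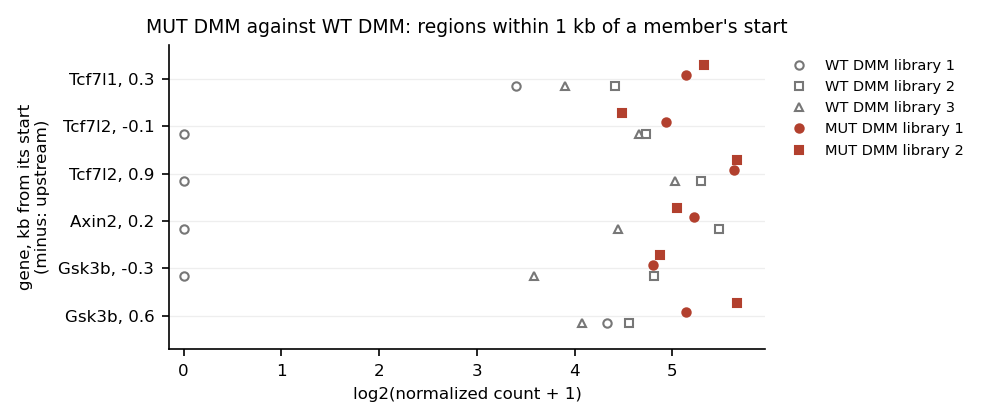
Values of each library, as log2(normalized count + 1), in the 6 regions within 1 kb of a member's start in MUT DMM against WT DMM; filled red symbols are the 2 MUT DMM libraries and open grey symbols the 3 WT DMM libraries. In 4 of the 6 regions WT DMM library 1 has no read, and in 3 of the 6 every MUT DMM library lies above every WT DMM library.

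Tcf7 encodes TCF1, best known from T cell development. It had changed regions in MUT DMM against WT DMM only by the nearest-gene rule, 1 higher and 3 lower. The higher region (chr11:52257201-52257420, 25.6 kb downstream of the start) read 29.01 and 31.99 in the 2 MUT DMM libraries and 28.7, 15.8 and 15.8 in the 3 WT DMM libraries, so the groups did not overlap, although the highest WT DMM value came from 3 reads of library 1. Its log2 fold change was 0.58, and 0.91 without that library. The lower region with the smallest adjusted p in the authors' deposited table (chr11:52251861-52252360, adjusted p = 5.82e-05) read 21.3 and 21.3 in MUT DMM and 19.1, 42.1 and 51.8 in WT DMM. WT DMM library 1 lay below both MUT DMM libraries there and the other 2 lay above them, and limma without that library gave a log2 difference of -1.10 (adjusted p = 0.0316). The other 2 lower regions had means of at least 1.87 in MUT DMM, and Tcf7's lower regions spanned log2 fold changes of -2.23 to -0.58.

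Tcf7's bounds also held changed regions that the tables assign to A630014C17Rik: 1 in WT DMM against WT sham, 3 in MUT DMM against WT DMM and 2 in MUT DMM against WT sham. One of them, chr11:52282661-52282880, lies by the Tcf7 start and was higher in MUT DMM than in WT DMM (means 29.9 and 14.8), while chr11:52274601-52275000 was lower in MUT DMM than in WT sham (63.3 and 126). The assay cannot say which of the overlapping genes a region belongs to. With these counted, Tcf7 held 19.0 listed regions per 100 kb in MUT DMM against WT DMM, where all protein-coding genes together held 2.94. All densities here count every listed region in a gene's bounds, for Tcf7l1 also those assigned to Gm15401 and Gm15402. Gsk3b (2.55), Axin1 (1.55) and Ctnnb1 (0) lay below that level in this comparison, and the other members above it.

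Lef1, a TCF/LEF factor that mostly activates its targets, had the most changed regions per member after Tcf7l2: 3 higher in WT DMM against WT sham, 3 higher and 8 lower in MUT DMM against WT DMM, and 4 higher and 12 lower in MUT DMM against WT sham. One region (chr3:131112361-131112560) overlapped the first 20 bases of the stretch shown above for the internal start, without reaching that start. It read 31.4, 58.7 and 40.6 in the WT DMM libraries and 21.1, 20.7 and 27 in WT sham. Every WT DMM library lay above every WT sham library, the almost empty library 1 with 2 reads included, and this was 1 of 2 higher member regions in that comparison for which this held. Its mean was 43.6 ± 13.9 in WT DMM (SD, n = 3) and 23.0 ± 3.5 in WT sham (SD, n = 3), a log2 fold change of 0.89 with an adjusted p of 0.00158 in the authors' deposited table. The Lef1 region with the smallest adjusted p in the authors' deposited table in that comparison (chr3:131131721-131131940, adjusted p = 0.00088) read 0, 9.34 and 18.7 in WT DMM and 5.13, 4.29 and 2.39 in WT sham, with library 1 below and the other 2 above all sham libraries.

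Limma called 7 Lef1 regions lower in MUT DMM than in WT sham, more than of any other member. MUT DMM library 2 was at 0 in all 7, so the text gives MUT DMM library 1. Of the 7, 3 lay upstream of the gene. At 89.8 kb upstream (chr3:131020261-131020540), MUT DMM library 1 read 0.74 and the WT sham libraries 6.89, 17.4 and 9.99. At 42.2 kb upstream (chr3:131067841-131068140) the values were 2.21 against 10.1, 16.2 and 15.8, and at 12.3 kb upstream (chr3:131097841-131098040) 0.74 against 6.89, 8.1 and 5.27. None of the 3 overlapped, and in each MUT DMM library 1 held 3 reads or fewer. Within the gene, the region 30.4 kb downstream of the start (chr3:131140701-131140920) read 2.95 against 11.7, 10.4 and 10.8, where the sham libraries lay close together. The region at 70.04 kb (chr3:131180341-131180720) had Lef1's smallest adjusted p in the authors' deposited table among lower regions (0.000209), with 1 read in MUT DMM library 1 (0.74) against 14.3, 13.9 and 8.6 in WT sham, and a limma difference of -3.30 (adjusted p = 0.00662). At 78.5 kb (chr3:131188761-131189060) the same library read 0.74 against 14.3, 13.9 and 3.61, with sham library 3 well below the other 2. At 111 kb (chr3:131221441-131221720), near the end of the gene, neither MUT DMM library had a read and the sham libraries read 5.3, 5.79 and 5.27.

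The 4 Lef1 regions that were higher in MUT DMM than in WT sham rested on few reads. All 4 read 18.9 in MUT DMM library 2, the value of 2 reads, and 2.95 to 5.15 in library 1. The one with the smallest adjusted p in the authors' deposited table (chr3:130994061-130994320, 116 kb upstream, adjusted p = 0.000473) read 4.42 and 18.9 in MUT DMM and 0.53, 3.47 and 1.11 in WT sham, and limma gave an adjusted p of 0.07. Over all members, 9 of the 13 higher regions of this comparison had exactly 2 reads in MUT DMM library 2 and 1 had 1 read.

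Against WT DMM, Lef1's strongest higher region lay 67.3 kb into the gene (chr3:131177641-131177980): the MUT DMM libraries read 45.6 and 56.9 and the WT DMM libraries 0, 25.6 and 35.3. Both MUT DMM libraries lay above all WT DMM libraries, and the log2 fold change was 1.29, or 0.73 without the empty library 1. Its lower region with the smallest adjusted p in the authors' deposited table (chr3:131143501-131143780, adjusted p = 0.000146) read 0.94 and 3.55 in MUT DMM and 0, 3.76 and 10.96 in WT DMM. Those values overlapped, and the log2 fold change of -0.86 became 0.17 without WT DMM library 3. This region overlaps by 180 bases another that was higher in WT DMM than in WT sham (chr3:131143601-131143800). That other region as a whole read 0, 5.34 and 12.5 in WT DMM and 3.2, 3.58 and 1.2 in WT sham. WT DMM library 3 was the highest in both regions. Another Lef1 region, listed in both comparisons of MUT DMM, read 4.45 and 0 in MUT DMM and 9.56, 12.8 and 10.3 in WT DMM (chr3:131159281-131159560), and 25.8 and 0 in MUT DMM and 59.9, 60.2 and 64.6 in WT sham (chr3:131159041-131159560). The MUT DMM values lay below all others in both, with library 2 at 0.

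Tcf7l1 encodes TCF3, a TCF/LEF factor that mainly represses. Its 4 listed regions in WT DMM against WT sham were all higher in WT DMM, and MUT DMM had 3 higher and 8 lower regions against WT DMM and 1 higher and 8 lower against WT sham. Around the start, the 3 comparisons listed 3 different stretches. Upstream (chr6:72789881-72790140, 836 bases before the start), the WT DMM libraries read 0, 14.7 and 10.4 and the WT sham libraries 1.28, 3.58 and 2.91. Libraries 2 and 3 lay above all sham values and library 1 was at 0, and limma without library 1 gave a log2 difference of 1.96 (adjusted p = 0.0187). Next to the promoter stretch shown above (chr6:72789361-72789560, 316 bases before the start), both MUT DMM libraries were at 0 and the WT sham libraries read 3.71, 13.9 and 3.88, a limma difference of -2.81 (adjusted p = 0.013). Just inside the gene (chr6:72788461-72788740, 305 bases after the start), MUT DMM read 34.2 and 39.1 and WT DMM 9.56, 20.3 and 14. The MUT DMM libraries lay above all 3 WT DMM libraries, and the log2 fold change was 1.27, or 1.05 without library 1, the most stable of the regions near a start together with that of Gsk3b below.

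Deeper in Tcf7l1, limma called 5 further regions lower in MUT DMM than in WT sham, each with MUT DMM library 2 at 0. At 41.1 kb from the start (chr6:72747681-72747960) MUT DMM library 1 read 1.47 and the sham libraries 6.89, 17.4 and 14.4. At 80.4 kb (chr6:72708461-72708660) it read 2.21 against 7.42, 8.1 and 9.99. At 115 and 135 kb (chr6:72674161-72674360 and chr6:72653461-72653700) it was at 0, against 5.83, 10.4 and 4.99 and against 4.77, 4.63 and 5.27. The region just beyond the gene's end (chr6:72625381-72625680) had 1 read (0.74) against 6.89, 5.79 and 7.77, with Tcf7l1's smallest adjusted p in the authors' deposited table among lower regions (0.000607). In these 5 regions the lowest sham value was 4.63 and the highest MUT DMM value 2.21. The single higher region against WT sham (chr6:72655381-72655660) read 62.6 and 18.9 in MUT DMM and 27.6, 35.9 and 28.9 in WT sham. The 2 MUT DMM libraries fell on either side of the sham values, and without the deeper one the log2 fold change turned from 0.39 to -0.68.

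Against WT DMM, the Tcf7l1 region with the smallest adjusted p in the authors' deposited table among lower ones (chr6:72713801-72714100, adjusted p = 0.000195) read 2.11 and 3.55 in MUT DMM and 0, 12.03 and 10.3 in WT DMM, where only the empty library 1 lay below the MUT DMM values. A higher region 58.2 kb from the start (chr6:72730541-72730820) read 39.1 and 35.5 against 0, 35.4 and 25.6. Its MUT DMM values exceeded the WT DMM values, the closest by less than 1 normalized count. It overlaps by 60 bases a region that was higher in WT DMM than in WT sham (chr6:72730341-72730600), with 0, 9.34 and 14.6 in WT DMM and 2.24, 2.86 and 2.56 in WT sham. Nearer the start, at 29 kb (chr6:72759821-72760040), MUT DMM read 0.7 and 3.55 against 0, 4.51 and 6.09 in WT DMM, and in the overlapping region against WT sham (chr6:72759761-72760040) 2.95 and 9.45 against 11.1, 9.26 and 11.4. Both were called lower by the authors and overlapped between groups, and MUT DMM library 2 rested on 1 read in each. Without MUT DMM library 1 the log2 fold change against WT DMM of -0.54 became 0.0053.

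Tcf7l2 encodes TCF4, a TCF/LEF factor known in the intestine and as a diabetes risk gene. It had the most changed regions of the 9 genes: 6 higher and 1 lower in WT DMM against WT sham, 5 higher and 15 lower in MUT DMM against WT DMM, and 4 higher and 13 lower in MUT DMM against WT sham. Of its regions, 10 of the 20 against WT DMM and 10 of the 17 against WT sham lay beyond the gene's end, up to 165 kb away in the 3 tables, where the nearest-gene label says least about function. The gene is 192 kb long. It held 4.69 and 3.65 listed regions per 100 kb in those comparisons, against 2.94 and 3.12 over all protein-coding genes. Against WT sham, Gsk3b (0.637), Apc (2.94) and Axin1 (3.10) lay below that level, and the other members above it.

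At its start, 3 regions were higher. The one over the CCGG-rich stretch shown above (chr19:55741501-55741700) read 29.7 and 21.3 in MUT DMM and 0, 25.6 and 24.4 in WT DMM. The groups overlapped, and its log2 fold change of 0.59 fell to 0.03 without WT DMM library 1, where that library was at 0. The region 871 bases into the gene (chr19:55742681-55742900) was listed as higher in MUT DMM in both comparisons that include it. Against WT DMM, MUT DMM read 48.4 and 49.8 and WT DMM 0, 38.4 and 31.7, and the log2 fold change was 1.04, or 0.48 without library 1. Against WT sham, it read 152 and 132 and WT sham 56.7, 86.8 and 107, means of 142 ± 14.3 (SD, n = 2) and 83.6 ± 25.3 (SD, n = 3). MUT DMM lay above every library of both other groups, by a log2 fold change of 0.76 against WT sham, but limma did not call it (adjusted p = 0.0817). Both comparisons use the same MUT DMM libraries. Between these, 511 bases into the gene (chr19:55742321-55742560), WT DMM read 0, 5.34 and 14.6 and WT sham 3.84, 2.86 and 1.37, and the difference rested on library 3, since its log2 fold change of 1.05 became -0.0078 without it.

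Farther into Tcf7l2, all regions that limma called in MUT DMM against WT sham were lower. At 4.45 kb from the start (chr19:55746261-55746460) MUT DMM library 1 read 2.21 against 9.01, 9.26 and 12.2, and at 167 kb (chr19:55909221-55909500) 2.95 against 6.36, 32.4 and 13.04, with library 2 at 0 in both. Beyond the gene's end, 3 regions had both MUT DMM libraries at 0: chr19:56012681-56012920 with sham values of 4.24, 4.63 and 4.72, chr19:56016181-56016420 with 4.24, 6.95 and 4.72, and chr19:56038881-56039160 with 7.42, 4.63 and 6.1. The sham libraries lay within 3 normalized counts of each other in all 3. The farthest (chr19:56098001-56098300) read 2.21 and 0 in MUT DMM against 7.42, 9.26 and 10.5. The region with the smallest adjusted p in the authors' deposited table among lower ones (chr19:56048381-56048760, adjusted p = 9.00e-05) read 2.21 and 9.45 in MUT DMM and 13.8, 20.8 and 14.2 in WT sham. It had the same bounds in MUT DMM against WT DMM, where MUT DMM read 0.7 and 3.55 and WT DMM 0, 2.26 and 12.2. There the lower mean of MUT DMM rested on WT DMM library 3, without which the log2 fold change of -0.90 became 0.55.

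Against WT DMM, Tcf7l2's smallest adjusted p in the authors' deposited table was that of a lower region 149 kb beyond the gene (chr19:56082821-56083300, adjusted p = 1.40e-05), with 1.87 and 7.11 in MUT DMM and 0, 9.03 and 21.3 in WT DMM. In the overlapping region against WT sham (chr19:56082921-56083280) MUT DMM read 5.89 and 18.9 and WT sham 19.6, 23.1 and 18.9, where the shallow MUT DMM library, with 2 reads, touched the sham range. Limma without WT DMM library 1 called 3 Tcf7l2 regions lower, among them 1 at 8.99 kb from the start (chr19:55750801-55751220), with 7.72 and 10.7 in MUT DMM against 0, 22.6 and 48.1 in WT DMM, a log2 difference of -1.75 (adjusted p = 0.0103). A region that overlaps it by 160 bases was higher in MUT DMM than in WT sham (chr19:55750761-55750960), with 5.15 and 18.9 in MUT DMM and 1.06, 3.47 and 3.05 in WT sham. The region that overlaps the first of the 3 above with no MUT DMM read in the sham comparison (chr19:56012741-56012940) read 0.94 and 3.55 in MUT DMM against 0, 3.76 and 8.52 in WT DMM, and its log2 fold change of -0.65 became 0.17 without WT DMM library 3.

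Among the Tcf7l2 stretches, 4 were listed in both WT DMM against WT sham and MUT DMM against WT DMM, which share the WT DMM libraries. At chr19:55815341-55815580, WT DMM read 15.7, 9.34 and 23.9 and WT sham 3.84, 6.44 and 7.01. Every WT DMM library lay above every sham library there, but library 1 did so on 1 read. In the longer region chr19:55815341-55815720, MUT DMM read 7.96 and 14.2 against 19.1, 10.5 and 28.6 in WT DMM, and the groups overlapped. At chr19:56082221-56082540 WT DMM read 0, 9.34 and 23.9 against 5.13, 6.44 and 4.96 in WT sham, and at chr19:56082281-56082560 MUT DMM read 1.87 and 3.55 against 0, 5.27 and 13.4. At chr19:56098721-56098940 WT DMM read 0, 9.34 and 5.21 against 1.28, 2.86 and 1.2, and at chr19:56098561-56098820 MUT DMM read 0.47 and 0 against 9.56, 4.51 and 3.65. In these 3, WT DMM was higher than WT sham and MUT DMM lower than WT DMM, but in the second of them both directions turned without WT DMM library 3, with log2 fold changes of 0.89 and -0.96 that became -0.20 and 0.0295. The fourth went the other way: at chr19:56089801-56090000 WT DMM read 0, 74.7 and 52.1 against 66.95, 72.96 and 65.1 in WT sham, and at chr19:56089921-56090180 MUT DMM read 34.4 and 24.9 against 0, 28.6 and 26.2. WT DMM library 1 was at 0 in both, and without it the log2 fold changes of -0.68 and 0.67 became -0.11 and 0.11.

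**Figure D3:**
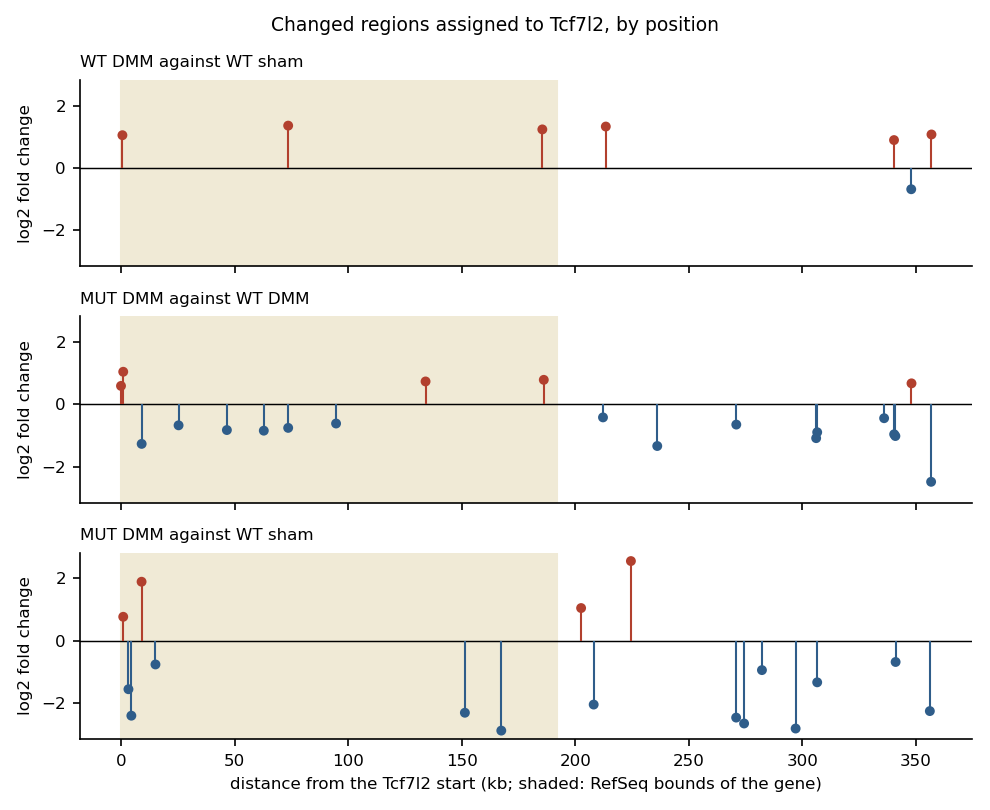
Log2 fold change of each changed region assigned to Tcf7l2 (points) against its distance from the start of the gene in kb, in the 3 comparisons (panels); shading marks the RefSeq bounds, with red for higher and blue for lower in the first-named group. Lower regions spread along and beyond the gene in both comparisons of MUT DMM, and the region 871 bases into the gene is higher in both.

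Ctnnb1, the gene of beta-catenin, had no listed region in WT DMM against WT sham or in MUT DMM against WT DMM. It had 3 between MUT DMM and WT sham, all lower in MUT DMM and all inside the gene, which made 11.1 per 100 kb of this short gene against 3.12 over all protein-coding genes. At 20.96 kb from the start (chr9:120954361-120954620), both MUT DMM libraries were at 0 and WT sham read 6.36, 4.63 and 3.88. About 1 kb on (chr9:120955421-120955800), MUT DMM read 0.74 and 0 and WT sham 10.6, 15.1 and 8.04, with an adjusted p of 0.000554 in the authors' deposited table. Neither overlapped, and limma called both, by -2.55 (adjusted p = 0.00203) and -3.17 (adjusted p = 0.00695) on the log2 scale. The third overlapped between the groups, since the shallow MUT DMM library had 1 read there. No listed region lay at either of the Ctnnb1 starts, though the 250 bases before them hold 6 and 2 CCGG.

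Axin1, the scaffold of the destruction complex, had few regions: 3 higher in WT DMM against WT sham, 1 higher in MUT DMM against WT DMM and 1 lower in MUT DMM against WT sham, all inside the gene. The higher region with the smallest adjusted p in the authors' deposited table (chr17:26183181-26183380, adjusted p = 0.00292) read 0, 9.34 and 12.5 in WT DMM and 2.24, 4.29 and 2.56 in WT sham, with library 1 at 0 and the other 2 above all sham values. In the lower one (chr17:26148741-26149000) both MUT DMM libraries were at 0 and WT sham read 7.95, 6.95 and 5.83, a limma difference of -2.97 (adjusted p = 0.00203). The region higher in MUT DMM than in WT DMM (chr17:26139041-26139240) read 30.4 and 21.3 against 0, 22.6 and 18.3. The groups overlapped there, and its log2 fold change of 0.88 fell to 0.33 without WT DMM library 1. A region at one end of Axin1's bounds (chr17:26131221-26131480) is assigned to Mrpl28 and was higher in MUT DMM than in WT sham (means 21.5 and 5.59). It is counted in the Axin1 density given above for that comparison.

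Axin2, a second Axin scaffold and itself a standard target gene of beta-catenin, had 1 lower region in WT DMM against WT sham, 1 higher and 4 lower in MUT DMM against WT DMM, and 2 higher and 5 lower in MUT DMM against WT sham. Of its lower regions, 2 in each comparison of MUT DMM lay in stretches that both comparisons listed, and the others had no counterpart. Upstream of the start, at chr11:108915661-108915980, MUT DMM read 0.7 and 0 and WT DMM 9.56, 5.27 and 4.26, and at chr11:108915641-108915920 MUT DMM read 1.47 and 0 and WT sham 7.42, 11.6 and 7.77. MUT DMM lay below every library of both other groups. In the gene, chr11:108930941-108931320 had the same bounds in both: MUT DMM read 3.28 and 7.11 against 0, 11.3 and 17.1 in WT DMM, and 10.3 and 18.9 against 21.7, 35.9 and 34.4 in WT sham. MUT DMM library 1 held 14 reads there, and only WT DMM library 1, at 0, lay below it. Limma called 3 Axin2 regions lower than WT sham, the upstream one among them (adjusted p = 0.0164). The second (chr11:108929881-108930260) had the smallest adjusted p in the authors' deposited table of Axin2's lower regions, 0.000328, with 2.21 and 0 in MUT DMM and 9.01, 32.4 and 11.9 in WT sham, and the third (chr11:108945661-108945880) had both MUT DMM libraries at 0 against 3.71, 5.79 and 4.44.

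By contrast, the Axin2 region just after the start (chr11:108920541-108920760, 192 bases downstream) was listed as higher in MUT DMM, which read 36.3 and 31.99 against 0, 43.6 and 20.7 in WT DMM. The 2 well-covered WT DMM libraries fell on either side of MUT DMM, and the log2 fold change of 0.65 became 0.08 without library 1. The only Axin2 region of WT DMM against WT sham (chr11:108941421-108941700) was lower, with 0, 4 and 0 in WT DMM and 73.04, 10.01 and 10.9 in WT sham. No WT DMM library reached the sham range, while sham library 1 stood far above the other 2. The overlapping region against WT sham (chr11:108941301-108941640) read 23.6 and 9.45 in MUT DMM and 94.4, 34.7 and 36.6 in the same sham libraries, again highest in library 1. The higher region against WT sham with the smallest adjusted p in the authors' deposited table (chr11:108891681-108891880) read 24.3 and 9.45 in MUT DMM and 12.2, 15.1 and 8.6 in WT sham, which overlap, and without MUT DMM library 1 its log2 fold change turned from 0.47 to -0.31.

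Apc, the tumour suppressor that binds beta-catenin and Axin, had 5 regions higher in WT DMM than in WT sham. The one with the smallest adjusted p in the authors' deposited table (chr18:34249741-34250060, adjusted p = 0.000345) read 0, 8 and 17.7 in WT DMM and 2.24, 4.29 and 2.05 in WT sham. The region just beyond one end of the gene (chr18:34322281-34322480) read 0, 5.34 and 19.8 against 4.16, 2.15 and 3.25, and without WT DMM library 3 its log2 fold change of 1.16 became -0.19. In all 5 library 1 was at 0 and library 3 was the highest value. Between MUT DMM and WT DMM, Apc had 2 higher and 2 lower regions. The higher one with the smallest adjusted p in the authors' deposited table, at the other end of the gene (chr18:34220541-34220960), read 45.9 and 49.8 in MUT DMM and 0, 39.1 and 19.5 in WT DMM. MUT DMM lay above all 3 there, and the log2 fold change was 1.25, or 0.69 without library 1.

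A further Apc region had the same bounds in 2 comparisons (chr18:34303281-34303560): WT DMM read 0, 5.34 and 17.7 against 2.56, 2.86 and 2.56 in WT sham, and MUT DMM 0.7 and 3.55 against 0, 3.01 and 10.3 in WT DMM. WT DMM library 3, with 17 reads, was the highest value in both, and without it the second log2 fold change of -0.80 became 0.32. A pair of Apc regions that overlap by 100 bases went opposite ways: at chr18:34279821-34280020 MUT DMM read 1.17 and 0 against 9.56, 4.51 and 6.09 in WT DMM, and at chr18:34279921-34280160 it read 35.3 and 18.9 against 19.1, 12.7 and 13.04 in WT sham. Limma called 1 Apc region in MUT DMM against WT sham (chr18:34246981-34247260), with 0.74 and 0 in MUT DMM and 6.89, 10.4 and 9.71 in WT sham, a difference of -2.91 (adjusted p = 0.00668).

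Gsk3b, the kinase of the complex, had 4 regions higher in WT DMM than in WT sham. The one with the smallest adjusted p in the authors' deposited table (chr16:38083821-38084140, adjusted p = 0.000294, 4.86 kb upstream of the start) read 0, 6.67 and 24.99 in WT DMM and 2.56, 3.58 and 3.93 in WT sham, and its log2 fold change of 1.41 became -0.0072 without WT DMM library 3. Against WT DMM, both sides of the start were higher in MUT DMM. Downstream (chr16:38089601-38089800, 600 bases after the start), MUT DMM read 34.2 and 49.8 and WT DMM 19.1, 22.6 and 15.8. Every MUT DMM library lay above every WT DMM library, and the log2 fold change of 1.09 kept its size without library 1 (1.09, limma adjusted p = 0.0442). Upstream (chr16:38088441-38088680, 321 bases before the start), MUT DMM read 26.9 and 28.4 against 0, 27.1 and 10.96, and the log2 fold change of 1.07 fell to 0.52 without library 1. The lower region with the smallest adjusted p in the authors' deposited table, 46.4 kb into the gene (chr16:38135361-38135740, adjusted p = 2.35e-05), read 14.04 and 7.11 in MUT DMM and 9.56, 26.3 and 57.8 in WT DMM. WT DMM library 1, with 1 read, fell between the MUT DMM values and the other 2 lay above both, and limma without it gave -1.86 (adjusted p = 0.00251).

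Against WT sham, limma called 2 Gsk3b regions lower, both upstream of the start and both with every MUT DMM library at 0. At 14.3 kb upstream (chr16:38074321-38074680) WT sham read 4.24, 5.79 and 4.99, and at 2.12 kb upstream (chr16:38086501-38086880) 7.95, 15.1 and 7.49. The second had the largest limma difference of the 28 member regions called in that comparison, -3.42 (adjusted p = 0.00338). The higher Gsk3b region in that comparison (chr16:38205281-38205500) read 33.9 and 85.02 in MUT DMM and 34.5, 37.05 and 27.5 in WT sham, where the deeper MUT DMM library lay inside the sham range and the shallower one above it.

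Across the members, the 28 regions that limma called in MUT DMM against WT sham looked alike. None overlapped between the groups, MUT DMM library 2 was at 0 in all 28, and library 1 held 0 to 4 reads. Both libraries were at 0 in 12 of the 28, beside 15253 of the 28276 regions that limma called lower over the whole table. Library 2 was at 0 in 96.2% of those 28276. Depth sets how far these zeros reach: a sham level of 5 to 9 normalized counts corresponds to less than 1 read in MUT DMM library 2, so that its 0 alone carries little, while in library 1 such a level corresponds to several reads. Leaving out either MUT DMM library leaves 1, which is then assumed to vary like the sham libraries, so calls of those fits are not counted here. Among the members, limma called 18 regions without WT sham library 1 and 19 without either of the other sham libraries. Calls in these fits were not counted over all regions, so 18 and 19 cannot be set beside the whole table. Genotype and surgery both differ between these groups, and their parts cannot be told apart.

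**Figure D4:**
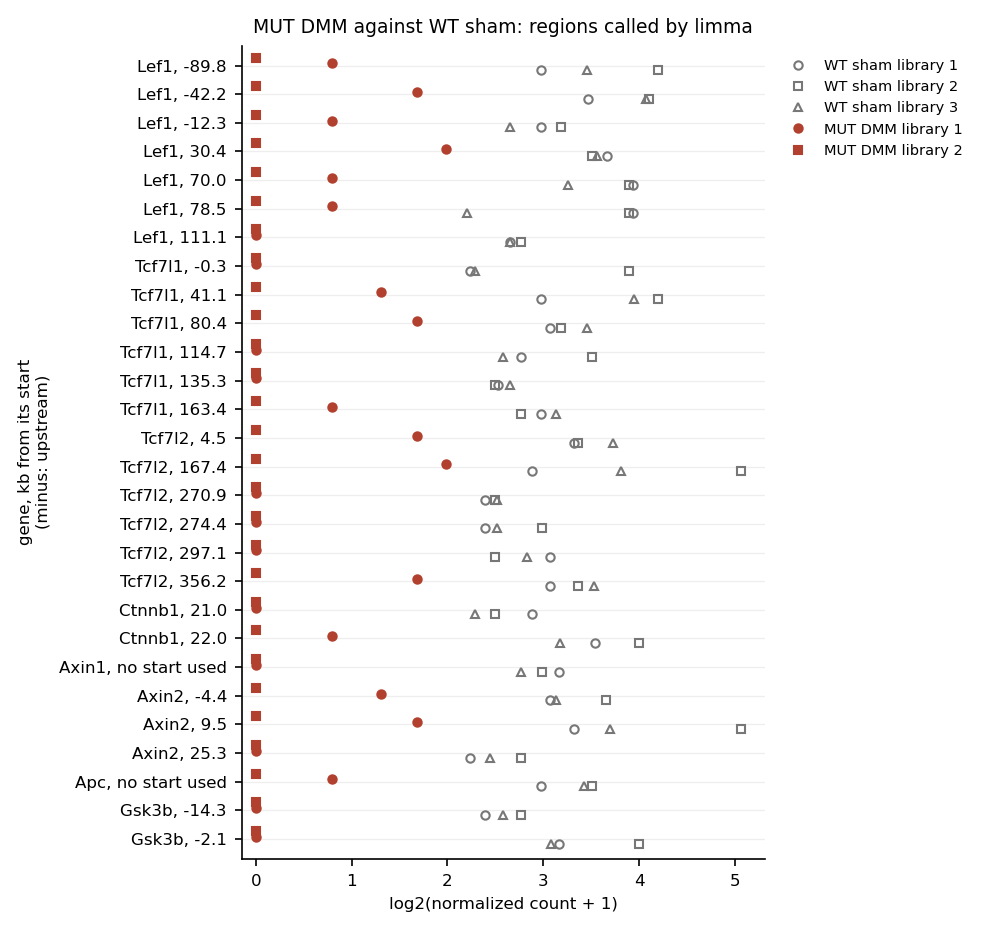
Values of each library, as log2(normalized count + 1), in the 28 member regions that limma called in MUT DMM against WT sham, labelled by gene and distance from the gene's start in kb; filled red symbols are the 2 MUT DMM libraries and open grey symbols the 3 WT sham libraries. All MUT DMM values lie to the left of all WT sham values, and MUT DMM library 2 is at 0 in every region.

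The 25 member regions that were higher in WT DMM than in WT sham were mostly weak signals. Their median mean was 7.64 in WT DMM and 2.86 in WT sham, beside 7.63 and 2.77 for all higher regions of the table. For 23 of the 25, WT DMM library 1 held no read, beside 97.5% of all higher regions, and library 3 lay above library 2 in 19. Their median log2 fold change was 1.16, and 1.61 without library 1. Without library 3, 18 of the 27 member regions were higher and 9 lower. Of MUT DMM against WT DMM, the 18 higher member regions had a median log2 fold change of 0.82, and 0.32 without WT DMM library 1, while the 43 lower ones had -0.90 and -1.40. Without WT DMM library 3, 29 were higher and 32 lower, again with no count over all regions. The higher regions of that comparison had a median mean of 35.4 in MUT DMM, and the lower ones of 2.36 in MUT DMM and 7.07 in WT DMM. Some lower regions were as well covered as the higher ones, such as a Tcf7l1 region (chr6:72813421-72813700) with 25.03 and 35.5 in MUT DMM and 19.1, 49.6 and 47.5 in WT DMM.

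Other genes around beta-catenin mostly leaned as their tables did, except the adhesion partners in MUT DMM against WT sham. Among 19 regulators of the destruction complex, 15 changed regions were higher and 2 lower in WT DMM against WT sham, 13 higher and 30 lower in MUT DMM against WT DMM, and 20 higher and 31 lower in MUT DMM against WT sham. Among 21 gene symbols of nuclear partners of beta-catenin and TCF/LEF, of which Tle5 and Aes name the same gene, the counts were 46 and 8, 29 and 59, and 47 and 57. Among 15 widely used target genes, they were 35 and 0, 13 and 21, and 22 and 36. Among 9 adhesion partners, they were 57 and 3, 24 and 49, and 44 and 38. In the last of these, Ctnna3 alone gave 18 higher and 8 lower regions, and Cdh5 5 higher and 15 lower. The genes with the most changed regions were Ctnna3 (an alpha-catenin, 20 regions), Cdc73 (a subunit of the PAF1 complex that binds beta-catenin, 11) and Ctnna2 (11) in WT DMM against WT sham. For MUT DMM against WT DMM they were Ctnna3 (22), Cdc73 (21) and Tle3 (a Groucho-type corepressor of TCF/LEF, 16), and in MUT DMM against WT sham Ctnna3 (26), Cdc73 (23) and Cdh5 (20).

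No region near a marker gene identifies a tissue in a DNA assay, so the label of knee cartilage could not be checked this way, and marker genes are given as counts. Over all listed regions, 34.2% were higher and 64.7% lower in MUT DMM against WT DMM, and 43.2% and 56.1% in MUT DMM against WT sham. Changed regions near 6 endothelial genes were 11 higher and 40 lower in the first of these and 12 higher and 35 lower in the second. Of these, Cdh5, also counted among the adhesion partners, gave 4 and 11, and 5 and 15. Those near 12 cartilage genes were 11 and 19, and 18 and 19, and those near 8 blood genes 3 and 7, and 8 and 8. For 6 skeletal muscle genes the counts were 7 and 7, and 9 and 9, and for 4 bone genes 2 and 0, and 2 and 2. In WT DMM against WT sham, 93.2% of all listed regions were higher and 6.53% lower. The counts there were 23 and 4 for endothelium, 16 and 2 for cartilage, 7 and 1 for blood, 8 and 2 for muscle and 1 and 0 for bone. The part of other cell types in the members' changes was not tested.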

How the data were processed

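5hmC was profiled by RRHP in mouse knee cartilage (mm10). The submitters' processing notes name HISAT2 2.1.0, Trim Galore 0.5.0, bcl2fastq 2.20.0, bedtools and SAMtools, and no source used here gives the region caller or how counts were normalized. The 3 deposited tables hold, per the file headers, the authors' normalized counts per library (a signal per region, joined in 1 cell), their means, and the authors' p-value and adjusted p-value for each region. All other values were computed here with Python 3.11.15, pandas 2.3.3, R 4.3.3 and limma 3.58.1.

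Each library's values were divided by the value of 1 read and came out whole within 0.02 normalized counts for at least 99.9955% of its values. A value of MUT DMM listed in 2 places was identical in 100% of regions and was counted once. Reads per library summed over the listed regions ranged from 4726 (WT DMM library 1) to 7860851 (a WT sham library), and single values carry at least the counting error of their reads. A region was called changed at an authors' adjusted p under 0.05. Fold changes are log2((mean + 1)/(mean + 1)) over distinct libraries; no count model was used. Limma (trend) was fitted per table on log2(value + 1) with Benjamini-Hochberg adjustment over the whole table. It was also run on simulated counts with only counting error and no prior selection of regions. That run cannot show how often calls are false or missed in these data. The labels list separate samples, but not whether each came from another animal, so p-values reflect only how far these libraries spread, which may be technical.

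Named regions, each with every library's value, are the region with the smallest authors' adjusted p per gene, table and direction, those listed in more than 1 table (overlap of at least 1 base), those within 1000 bases of the gene's most upstream start (for Axin1 and Apc, with no start in the promoter table, of a RefSeq bound), and those limma called. Regions named for another reason were chosen after their values were seen. Pathway genes are given by counts, with the 3 that had the most changed regions in each table named. The members and lists were chosen with earlier results of these data known. Gene bounds and promoter sequences are RefSeq's (GRCm38.p6). Alternatives were a stricter adjusted p (0.01), membership by RefSeq bounds with 5000 bases on each side, at least 10 reads, the authors' deposited means, pseudocounts of 0.5 and 4, and leaving out each library in turn. The shares near gene starts without WT DMM library 1 were added after seeing the data. The MUT sham samples and the negative control were not analysed here.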

Additional observations from a re-analysis of the deposited data

How the results depend on the processing

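No paired analysis was possible because the values in the tables carry no replicate numbers. The counts of changed member regions moved by less than 1.5 times under the stricter adjusted p, membership by RefSeq bounds, at least 10 reads and the authors' means, and limma's counts under both pseudocounts and at least 10 reads. Several of these settings had little room to act. The fewest reads of a member region were 27, 9 and 10 in the 3 comparisons, and most member regions already had an adjusted p under 0.01. In WT DMM against WT sham the authors' means equal those used here. Leaving out single libraries moved the members' counts more, and only leaving out WT DMM library 1 was also counted over all regions. In WT DMM against WT sham, lower regions ranged from 2 to 9 (9 without WT DMM library 3) and limma calls from 0 to 25 (25 without WT DMM library 1). In MUT DMM against WT DMM, higher regions ranged from 17 to 29 (29 without WT DMM library 3) and limma calls from 0 to 6 (6 without WT DMM library 1). For MUT DMM against WT sham, limma calls ranged from 18 (without WT sham library 1) to 42 (without MUT DMM library 1, where the lone MUT DMM library is assumed to vary like the sham libraries). Of 85 named regions, 12 changed sign when 1 library was left out. A pseudocount is added to both means and cannot change a sign. In MUT DMM against WT sham, the log2 fold changes of 11 of 41 named regions shifted by at least their libraries' combined SD under a pseudocount of 0.5. Under a pseudocount of 4, 21 of the 41 did so, and 3 of 29 in MUT DMM against WT DMM. In the 12 regions that changed sign, log2 fold changes ranged, over the libraries left out, as follows. In WT DMM against WT sham, always lowest without WT DMM library 3, they ran from -0.19 to 1.70 (Apc 34322281), -0.0072 to 1.95 (Gsk3b 38083821), -0.0078 to 1.57 (Tcf7l2 55742321) and -0.20 to 1.44 (Tcf7l2 56082221). For MUT DMM against WT DMM, highest without WT DMM library 3, they ran from -1.68 to 0.32 (Apc 34303281), -1.61 to 0.17 (Lef1 131143501), -1.39 to 0.17 (Tcf7l2 56012741), -1.77 to 0.55 (Tcf7l2 56048381) and -1.48 to 0.0295 (Tcf7l2 56082281), and from -1.42 to 0.0053 for Tcf7l1 72759821, highest without MUT DMM library 1. In MUT DMM against WT sham, lowest without MUT DMM library 1, they ran from -0.31 to 0.97 (Axin2 108891681) and -0.68 to 1.001 (Tcf7l1 72655381). The cause was not tested. Depth limits these values: 3 reads equal 28.3 normalized counts in MUT DMM library 2 of the sham comparison and 47.0 in WT DMM library 1.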
